A study of Mus musculus with 4 samples.

Results

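Matrix proteases and the proteins that restrain or position them were followed across the cell types of the mouse colon as 9 genes of the 32285 features in the deposited matrices. They were the gelatinase genes Mmp2 and Mmp9, the collagenase gene Mmp13, the membrane-anchored Mmp14, Mmp19, the tissue inhibitor genes Timp1 and Timp2, the urokinase gene Plau and its receptor gene Plaur. The genes were chosen by name, with earlier results of these data known. All 9 were detected in each of the 4 libraries.

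Matrix metalloproteinases are zinc enzymes, made as inactive precursors, that cut collagens, elastin, fibronectin and other matrix proteins. TIMP proteins bind the active enzymes and block them, and TIMP2 together with MMP14 at the cell surface also takes part in the activation of pro-MMP2. Urokinase, held at the surface by its receptor, converts plasminogen to plasmin, which in turn can activate several metalloproteinase precursors. In the gut these enzymes are known from stromal cells, macrophages and neutrophils, where they serve tissue turnover and cell migration.

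The cells had been enriched by positive selection for CD11b, an integrin of myeloid cells, at steady state without treatment, and came from solitary isolated lymphoid tissue (SILT, small lymphoid aggregates of the gut wall) or from the lamina propria of the colon. The 4 groups were SILT of Csf2-/-:CX3CR1-GFP/+:CCR2-RFP/+ mice, SILT of Csf2+/+:CX3CR1-GFP/+:CCR2-RFP/+ mice, and lamina propria (LP) of each of these genotypes. They are called Csf2-/- (KO) and wild type (WT), and both carry the 2 reporter alleles. Csf2 encodes the growth factor GM-CSF. Each group was 1 droplet library, the design text counts 5 mice, and pooling of animals is not described. All intervals are therefore 95% intervals of counting error only, no p-value was computed, and no value describes the spread between mice.

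The SILT libraries held 21225800 UMIs in Csf2-/- and 67656927 UMIs in wild type, and the lamina propria libraries 19225644 UMIs in Csf2-/- and 50017502 UMIs in wild type. After filtering, 2368, 7594, 1967 and 4436 cells were left in the same order. Csf2 had 0 UMIs in both Csf2-/- libraries, 24 UMIs in 11 cells of wild-type SILT and 2 UMIs in wild-type lamina propria. The zeros allow up to 0.145 CPM in Csf2-/- SILT and 0.16 CPM in Csf2-/- lamina propria, so the label was not checkable at this depth in lamina propria, and the labels do not say which part of the gene is deleted. Xist stood higher in both Csf2-/- libraries (582.1 CPM against 265 CPM in wild type in SILT, 825 CPM against 392 CPM in wild type in lamina propria), and the Y-linked Eif2s3y lower (11.5 CPM against 20.8 CPM, and 9.22 CPM against 26.7 CPM). Genotype and the mix of sexes cannot be told apart in any comparison below. Pairs of libraries shared 3 to 19 cell barcodes, at most 0.371% of the smaller library.

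Cells were clustered without the 9 genes, which gave 29 clusters, 18 of them named from marker genes into 13 classes and 11 left unnamed. Macrophage-like cells, whose 14 markers were all detected in every library and summed to 38978 to 49738 CPM, were made up of cluster 1, led by Lyve1, Cbr2, Folr2 and Cd163, and cluster 9, led by Gbp2b, H2-M2 and Lag3 beside Mmp13 itself. Levels are given as CPM, the UMIs of a gene per 1000000 UMIs of the class. UMIs count transcript 3' ends, so CPM needs no length scaling, but capture can differ between genes, and levels are compared here within a gene. Cells of a class are not replicates.

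Start-proximal sequence is shown for Mmp13 and Plaur, because each window holds an AP-1 motif, a site type bound by Fos and Jun proteins. Both genes stood higher in the same macrophage-like cluster than in the other. So did Mmp14, whose window was matched and holds no AP-1 motif. A link between motif and level was not tested. Promoter windows (RefSeq, GRCm38.p6, the 250 bases before the start) were matched for 5 of the 9 genes, and the 2 printed are on the plus strand. Capitals mark the AP-1 letters.

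Mmp13, chr9:7272264-7272513: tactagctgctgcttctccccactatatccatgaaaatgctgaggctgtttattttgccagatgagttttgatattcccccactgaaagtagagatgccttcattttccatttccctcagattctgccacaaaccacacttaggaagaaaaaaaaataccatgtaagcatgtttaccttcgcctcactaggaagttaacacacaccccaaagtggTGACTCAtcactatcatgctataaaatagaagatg

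Plaur, chr7:24462233-24462482: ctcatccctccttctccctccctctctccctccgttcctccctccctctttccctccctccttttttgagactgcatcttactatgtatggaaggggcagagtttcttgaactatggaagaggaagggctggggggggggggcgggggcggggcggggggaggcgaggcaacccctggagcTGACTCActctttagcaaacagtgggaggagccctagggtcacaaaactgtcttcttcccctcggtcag

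Both strands of the windows were searched for AP-1 (TGANTCA), RUNX (AACCACA), CRE (TGACGTCA) and SP1 (GGGCGG). Matches of different motifs did not overlap, though neighbouring SP1 matches of Plaur shared a base. The AP-1 motif stood 35 bases before the start of Mmp13 and 69 bases before that of Plaur, and 6.75% of 32851 mouse promoter windows of the same length hold one. The Mmp13 window also held a RUNX motif 119 bases before the start, found in 4.4% of windows. Plaur held 3 SP1 motifs, and Mmp14 2, Timp2 1 and Timp1 1, against 32.74% of windows with at least 1. No AP-1 motif was in the Mmp14, Timp2 and Timp1 windows, and no CRE motif, held by 1.55% of windows, was in any of the 5. These are matches of letters only.

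The 9 genes divided by cell type, with fibroblast-like cells highest for 5 of them among named classes, neutrophil-like cells for 2 and macrophage-like cells for 2. Mmp2, whose product gelatinase A cuts denatured collagen and collagen IV, had 436 CPM in fibroblast-like cells over all libraries and UMIs in 82.1% of them. These cells held 52.8% of all Mmp2 UMIs while contributing 2.63% of all UMIs. By library Mmp2 reached 584 CPM in Csf2-/- SILT, 334 CPM in wild-type SILT, 678 CPM in Csf2-/- lamina propria and 660 CPM in wild-type lamina propria fibroblast-like cells. Glia-like cells (81.8 CPM), cluster 16 (81 CPM, cells with smooth muscle and fibroblast genes) and pericyte-like cells (55.6 CPM) came next, and the first of these did not differ from the second beyond counting error. Endothelial-like cells had 1.865 CPM of Mmp2, with a UMI in 1.21% of cells. The part of free RNA in that value was not tested. The median depth was 10222 UMIs per fibroblast-like cell, 7486 per endothelial-like cell, 10185 per macrophage-like cell and 2526.5 per neutrophil-like cell.

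**Figure D1:**
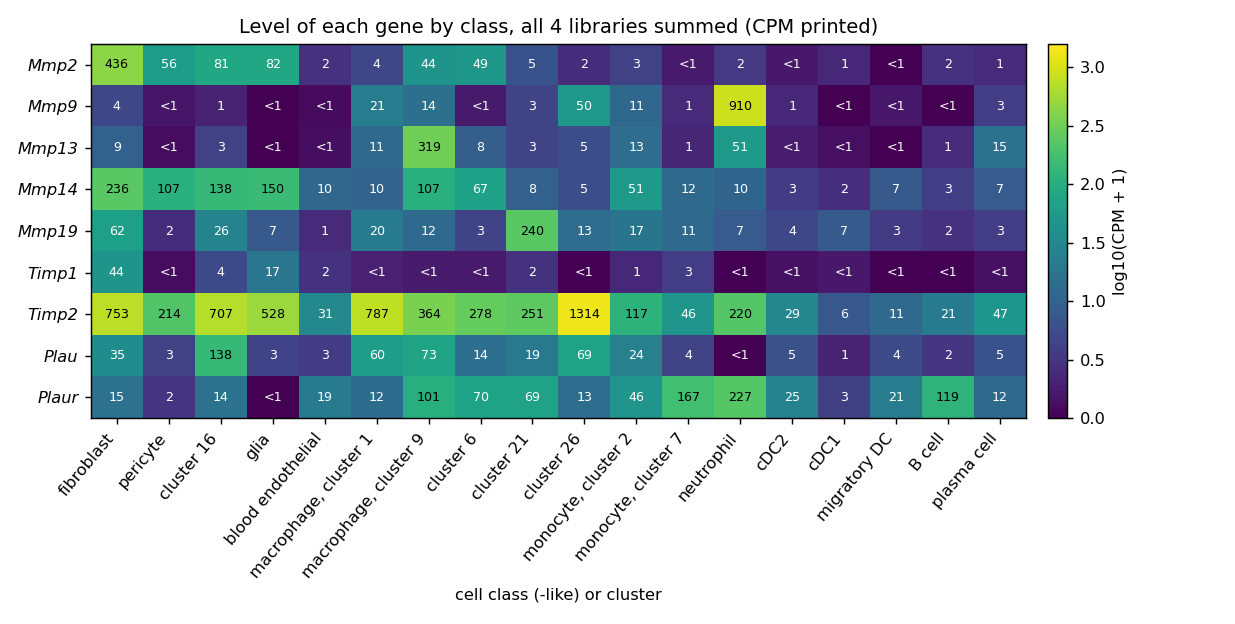
Level of each of the 9 genes (rows) in cell classes and clusters (columns), all 4 libraries summed, colour giving log10(CPM + 1) and the printed number CPM. Mmp2, Mmp14 and Timp1 are brightest in fibroblast-like cells, Mmp9 in neutrophil-like cells (910), Mmp13 in macrophage cluster 9 and Mmp19 in the unnamed cluster 21 (240).

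Mmp14, which encodes the membrane-type enzyme MT1-MMP, was also highest in fibroblast-like cells, at 236 CPM over all libraries. Its levels there were 309 CPM in Csf2-/- SILT, 189 CPM in wild-type SILT, 336 CPM in Csf2-/- lamina propria and 341 CPM in wild-type lamina propria. Glia-like cells had 150 CPM from 50 cells, cluster 16 had 138 CPM and pericyte-like cells 107 CPM, with intervals of the first and second that overlap. The spread over classes was flatter for Mmp14 than for Mmp2, and macrophage-like cells kept 43 CPM.

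Timp1 and Timp2 differed in where they were found. Timp1, a soluble inhibitor, had 44.1 CPM in fibroblast-like cells, which held 48.4% of its UMIs, and only 0.887 CPM in macrophage-like cells (26 UMIs in 2598 cells). Among vessels it was found in cluster 23, endothelial-like cells led by Madcam1 and Ackr1 genes of high venules, at 19.9 CPM from 22 UMIs. Timp2 was high in macrophage-like cells (641 CPM, UMIs in 94.3% of cells against 17.6% of endothelial-like cells, and 56.8% of all its UMIs), in fibroblast-like cells (753 CPM) and in cluster 16 (707 CPM). The unnamed cluster 26, 61 cells led by C4b, Vsig4 and Timd4, had 1314 CPM, between 1108 and 1396 CPM in the 4 libraries. The levels of the 4 libraries overlapped between fibroblast-like cells, cluster 16 and macrophage-like cells, so these 3 have no order beyond the spread of the libraries. The Timp2 gene overlaps Cep295nl on the same strand, so its reads could include that gene's.

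Mmp9, gelatinase B, which neutrophils store in granules, had 910 CPM in neutrophil-like cells and UMIs in 93.3% of them, against 0.22% of endothelial-like cells. The libraries held 881 CPM in Csf2-/- SILT, 794 CPM in wild-type SILT, 1246 CPM in Csf2-/- lamina propria and 767 CPM in wild-type lamina propria. With 37, 24, 27 and 16 such cells these levels were not compared. Macrophage-like cells had 18.7 CPM, yet through their number held 44.7% of Mmp9 UMIs. The neutrophil markers summed to 31.8 to 57.1 CPM in macrophage-like cells, against 67636 to 100070 CPM in neutrophil-like cells. By library 6 to 8 of the 9 markers were detected in macrophage-like cells. Ly6g was at 0 there, as it was in neutrophil-like cells of Csf2-/- lamina propria and wild-type SILT.

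Mmp13, a collagenase of fibrillar collagen, was the member most confined to macrophages: macrophage-like cells held 86.8% of its UMIs and 19.2% of all UMIs. It had 118 CPM there and 0.297 CPM in endothelial-like cells (7 UMIs). Plau had 64.9 CPM in macrophage-like cells, where 39.5% of cells had a UMI against 2.09% of endothelial-like cells. The unnamed cluster 16 had more Plau, 138 CPM over all libraries, carried by 153 CPM in wild-type SILT and 126 CPM in wild-type lamina propria. Fibroblast-like cells had 35.1 CPM and monocyte-like cells 16.6 CPM, and neutrophil-like cells had 0 UMIs.

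Plaur was found in all the myeloid classes named here. Neutrophil-like cells had 227 CPM, monocyte-like cells 87.8 CPM, macrophage-like cells 42.8 CPM, cDC2-like cells 24.9 CPM and endothelial-like cells 19.2 CPM. Outside the myeloid cells, B cell-like cells had 119 CPM, and the unnamed cluster 28, 50 cells almost all from wild-type SILT, had 153 CPM. The neutrophil-like levels were 193 to 265 CPM by library, from 16 to 37 cells each, and were not ordered against other classes by library. The B cell-like levels in SILT (82.3 CPM in Csf2-/- and 128 CPM in wild type) overlapped with the monocyte-like levels of 55.7 to 106 CPM. Between genotypes the B cell-like level in SILT was 1.56-fold lower in Csf2-/- (1.08 to 2.32), where 30.7% of genes were 1.5-fold apart. Mmp19, a metalloproteinase of basement membrane and matrix proteins, was highest in cluster 21, 189 cells led by Retnla, Lpl and Fn1. That cluster had 240 CPM and held 31.8% of all Mmp19 UMIs from 1.7% of all UMIs. By library cluster 21 had 58.2 CPM in Csf2-/- SILT (4 UMIs), 164 CPM in wild-type SILT, 151 CPM in Csf2-/- lamina propria and 279 CPM in wild-type lamina propria. Mmp19 overlaps Tmem198b and Gm47093 on the opposite strand, and Timp1 overlaps Syn1 likewise. The counting is not stated to use strand, so these values could include reads of the partners.

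Within the macrophage-like cells, Mmp13, Mmp14 and Mmp2 stood higher in cluster 9 and Timp2 higher in cluster 1, in all 4 libraries. The clusters were formed on other genes of the same cells, so this is a description. Mmp13 had 299 CPM in Csf2-/- SILT, 330 CPM in wild-type SILT, 344 CPM in Csf2-/- lamina propria and 310 CPM in wild-type lamina propria in cluster 9. In cluster 1 it had 21.3, 9.7, 23.5 and 8.6 CPM in that order. No library of cluster 1 came near any library of cluster 9.

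Mmp14 followed the same division, with 110, 91.8, 148 and 113 CPM in cluster 9 and 12.3, 10.6, 11.8 and 8.1 CPM in cluster 1, in the same library order. Mmp2 had 44.8, 44.7, 35.4 and 46.3 CPM in cluster 9 and 5.9, 4.5, 1.2 and 3.6 CPM in cluster 1. The fibroblast markers summed to 37.3 to 41.9 CPM in cluster 9, against 20421 to 29125 CPM in fibroblast-like cells. In cluster 9 Mmp2 was about as high as all 10 fibroblast markers together, and in fibroblast-like cells it was below their sum. The part of free fibroblast RNA in the Mmp2 values was not tested.

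Timp2 ran the other way, with 746, 742, 788 and 817 CPM in cluster 1 and 414, 335, 343 and 372 CPM in cluster 9. Plaur was high in cluster 9 (107, 110, 107 and 61.4 CPM) and low in cluster 1 (16, 12.5, 21.2 and 10.3 CPM). Plau was not divided this way: its cluster 9 levels of 32.8, 104, 71.8 and 56.4 CPM enclosed its cluster 1 levels of 44.3, 73, 55.2 and 57.6 CPM. Mmp12, the macrophage elastase and the other metalloproteinase with at least 30 UMIs here, had 98.8, 164, 79.3 and 250 CPM in cluster 9 and at most 6.93 CPM in cluster 1.

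**Figure D2:**
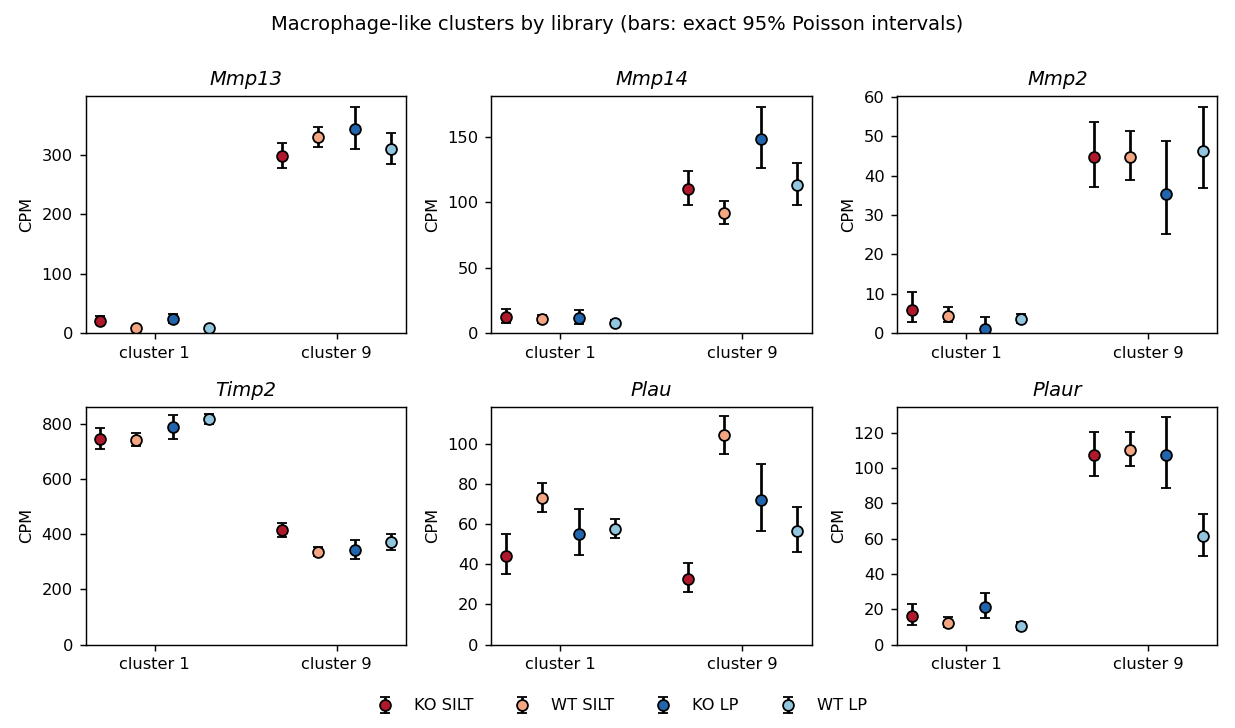
CPM of 6 genes in macrophage-like clusters 1 and 9, one point per library (KO is Csf2-/-, WT wild type, LP lamina propria) with exact 95% Poisson intervals. Mmp13, Mmp14, Mmp2 and Plaur stand higher in cluster 9 and Timp2 in cluster 1 in every library, while Plau is lowest in KO SILT in both clusters.

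The libraries differed in how many macrophage-like cells came from each cluster. Cluster 9 made up 47% of macrophage-like cells in Csf2-/- SILT (42 to 52%), 33.1% of those in wild-type SILT (30.2 to 36.1%), 27.5% of those in Csf2-/- lamina propria (22.4 to 33.1%) and 9.84% of those in wild-type lamina propria (7.99 to 11.9%). These shares describe the makeup of the sums. They move with every class-level comparison below, so ratios from the class sums are set beside ratios with both clusters at equal weight, a setting added after the data were seen.

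The first comparison asks how the protease genes differ in SILT when CSF2 is missing. In macrophage-like cells Plau stood lower in Csf2-/- SILT and Mmp9 higher, and the other measured genes were within 1.5-fold. Of the 8 genes with at least 30 UMIs over both libraries, 1 was higher by 1.5-fold or more and 1 lower, where 14.6% of all 10879 genes were that far apart, 8.82% higher and 5.79% lower. The median log2 ratio of the 8 was 0.26, against 0.06 over all genes. Timp1 had too few UMIs to be compared in macrophage-like cells, 5 in Csf2-/- SILT and 12 in wild-type SILT.

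Plau, the gene of urokinase, had 37.5 CPM in Csf2-/- SILT macrophage-like cells and 87.4 CPM in those of wild-type SILT. A Plau UMI was found in 27.5% and 41.9% of these cells, and in 2.8% and 7.88% after thinning each cell to 1000 UMIs. The level was 2.33-fold lower in Csf2-/- SILT (1.97 to 2.76). It was 1.65-fold lower in cluster 1 (1.30 to 2.12) and 3.18-fold lower in cluster 9 (2.53 to 4.04), and at equal cluster weight the ratio was 0.435. No single cell carried the difference, which was 2.31-fold with each library's highest cell left out (1.95 to 2.75). When all cells with at least 2 C1q UMIs were taken instead, the levels were 21.8 CPM in Csf2-/- SILT and 28 CPM in wild-type SILT. That log2 ratio of -0.36 is under 1.5-fold. The C1q rule took 1179 cells in Csf2-/- SILT and 4314 in wild-type SILT, of which 33.6% and 23.1% were in clusters 1 and 9. In lamina propria these shares were 35.2% in Csf2-/- and 37.1% in wild type. Values under the C1q rule, here and below, describe mostly cells outside the macrophage-like clusters.

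Mmp9 had 20.4 CPM in Csf2-/- SILT and 12.1 CPM in wild-type SILT macrophage-like cells, 1.69-fold higher (1.27 to 2.23). Its 93 and 120 UMIs lay in 33 and 53 cells. At equal cluster weight the ratio was 2.002. In cluster 1 it was 2.39-fold higher (1.73 to 3.28), and in cluster 9 the levels of 6.71 and 6.57 CPM did not differ beyond counting error (ratio 1.02, 0.536 to 1.89). Leiden resolution 2 moved the class log2 ratio of 0.76 to 1.86. Mmp14 had 70 CPM in Csf2-/- SILT and 47.9 CPM in wild-type SILT, 1.46-fold higher (1.26 to 1.69) and 1.20 at equal cluster weight. Mmp13 was 1.18-fold higher (1.08 to 1.28) from the class sum and at a ratio of 0.943 at equal weight, while the C1q rule gave a log2 ratio of 1.02. Timp2 had 551 CPM in Csf2-/- SILT and 555 CPM in wild-type SILT, a ratio of 0.992 (0.946 to 1.04), and 1.08 at equal weight.

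The same genotype comparison in lamina propria gave another set of genes. Plaur, Mmp13, Mmp14 and Mmp9 were 1.5-fold or more above wild type in macrophage-like cells of Csf2-/- lamina propria, and none of the 8 measured genes was that much lower, where 19% of 10985 genes passed either way, 7.06% higher and 11.9% lower. The median of the 8 was 0.87 on the log2 scale, against -0.05 over all genes. Plau was not among them, at 61.6 CPM in Csf2-/- and 57.4 CPM in wild-type lamina propria (ratio 1.07, 0.903 to 1.27). The difference between its ratios in SILT and in lamina propria was not tested.

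Mmp13 had 147 CPM in Csf2-/- and 53.3 CPM in wild-type lamina propria macrophage-like cells, 2.77-fold higher (2.44 to 3.14). Mmp14 had 64.5 CPM in Csf2-/- and 23.7 CPM in wild type, 2.72-fold higher (2.24 to 3.29). With both clusters at equal weight these ratios were 1.16 and 1.32. In cluster 9 Mmp13 was 1.11-fold higher (0.972 to 1.27) and Mmp14 1.31-fold (1.06 to 1.62). In cluster 1 Mmp13 was 2.74-fold higher, but 32 of its 40 Csf2-/- UMIs lay in 1 cell, and with each library's highest cell left out the ratio was 0.665 (0.277 to 1.38). Mmp14 also lost its 1.5-fold call under the C1q rule, at a log2 ratio of 0.30.

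Plaur kept a difference within both clusters. It had 54.4 CPM in Csf2-/- and 17.9 CPM in wild-type lamina propria macrophage-like cells, 3.04-fold higher (2.45 to 3.76). The ratio was 2.05 in cluster 1 (1.36 to 3.02), 1.75 in cluster 9 (1.33 to 2.29) and 1.79 at equal weight. Mmp9 had 41.8 CPM in Csf2-/- and 18.2 CPM in wild type, 2.29-fold higher (1.81 to 2.88), and 2.26-fold at equal weight. Of its 116 Csf2-/- UMIs 50 lay in 1 of 20 positive cells, and with each library's highest cell left out the ratio was 1.496 (1.11 to 1.99), just under 1.5-fold. At a finer clustering (Leiden resolution 2) the Mmp9 log2 ratio was 0.44. Timp2 had 616 CPM in Csf2-/- and 751 CPM in wild type, 1.22-fold lower (1.16 to 1.28), and 0.951 at equal weight, with a log2 ratio of -0.66 at Leiden resolution 2. The C1q rule turned Mmp19, at 23.1 CPM in Csf2-/- and 20.9 CPM in wild type from the class sum, to a log2 ratio of -0.97.

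**Figure D3:**
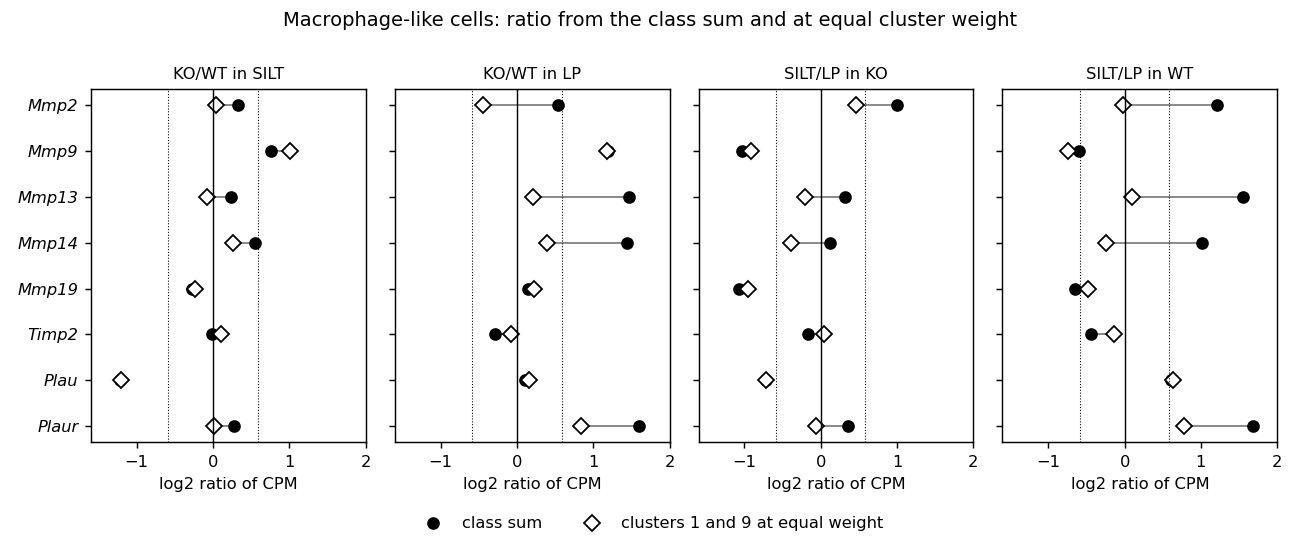
log2 ratio of CPM in macrophage-like cells for 8 genes in the 4 comparisons (KO is Csf2-/-, LP lamina propria), from the class sum (filled circles) and with clusters 1 and 9 at equal weight (open diamonds), dotted lines at 1.5-fold. Mmp2, Mmp13 and Mmp14 move toward or past 0 at equal weight in KO/WT in LP and in SILT/LP in WT, whereas Plau stays in place.

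Between tissues, wild-type macrophage-like cells of SILT stood apart from those of lamina propria in 7 of 8 genes, 5 at least 1.5-fold higher and 2 lower, where 32.1% of 11570 genes passed either way, 8.39% higher and 23.7% lower. The comparisons share libraries with the ones above, so they are not separate evidence. Mmp13 had 157 CPM in SILT and 53.3 CPM in lamina propria (2.94-fold, 2.68 to 3.23), Plaur 57.5 and 17.9 CPM (3.21-fold, 2.74 to 3.77), Mmp14 47.9 and 23.7 CPM (2.02-fold, 1.74 to 2.35) and Mmp2 23 and 9.94 CPM (2.31-fold, 1.84 to 2.90). At equal cluster weight Mmp13 had a ratio of 1.07, Mmp14 0.844 and Mmp2 0.985, so these 3 were within 1.5-fold and 2 turned in direction. Plaur kept 1.71 and Plau 1.56 at equal weight.

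Plau had 87.4 CPM in wild-type SILT and 57.4 CPM in wild-type lamina propria, 1.52-fold higher (1.38 to 1.69), and 1.85-fold in cluster 9 (1.49 to 2.32). With each library's highest cell left out the ratio was 1.49, and under the C1q rule the direction turned, with 28 CPM in SILT and 30.4 CPM in lamina propria. Mmp19 had 13.3 CPM in SILT and 20.9 CPM in lamina propria, 1.57-fold lower (1.27 to 1.96), but at equal cluster weight its ratio was 0.716, within 1.5-fold. Mmp9 was 1.51-fold lower (1.20 to 1.90), with a ratio of 0.599 at equal weight. Timp2 was 1.35-fold lower in SILT (1.31 to 1.40), with a ratio of 0.906 at equal weight. Under the C1q rule the log2 ratio of Mmp19 was -1.69 and that of Timp2 -0.87, and with means over cells that of Mmp9 was -0.0135.

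In Csf2-/- mice 4 of 8 genes differed between the tissues, 1 higher and 3 lower in SILT, where 10.4% of 9859 genes passed either way, 4.12% higher and 6.32% lower. Plau had 37.5 CPM in SILT and 61.6 CPM in lamina propria, 1.64-fold lower (1.32 to 2.04) and at a ratio of 0.607 at equal weight, the opposite direction from wild type. Mmp2 was higher in SILT (28.8 CPM against 14.4 CPM in lamina propria, 1.99-fold, 1.39 to 2.92), and 1.38-fold at equal weight. Mmp19 was 2.1-fold lower in SILT (1.43 to 3.11), with a ratio of 0.518 at equal weight. Mmp9 was 2.05-fold lower (1.55 to 2.72) and at a ratio of 0.532 at equal weight, but 1.33-fold (0.944 to 1.86) with each library's highest cell left out.

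Plaur stood lowest in wild-type lamina propria in several classes beside macrophages. Endothelial-like cells had 27.9 CPM in Csf2-/- SILT, 23.3 CPM in wild-type SILT, 25 CPM in Csf2-/- lamina propria and 9.12 CPM in wild-type lamina propria. The 3 other libraries overlapped in their intervals and wild-type lamina propria did not. The Csf2-/- level in lamina propria was 2.74-fold higher than wild type (1.91 to 3.92), and the wild-type SILT level was 2.56-fold higher than in wild-type lamina propria (1.97 to 3.37). Plaur was the 1 gene of 3 measured in endothelial-like cells to pass 1.5-fold between genotypes in lamina propria, where 14.4% of 10734 genes did. In SILT 0 of 5 measured genes passed (18.3% of all), and between tissues 0 of 3 in Csf2-/- mice (7.71%) and 4 of 6 in wild type (15.5%). The last count was Plaur, Plau at 40 UMIs in SILT against 9 in lamina propria (3.31-fold, 1.58 to 7.75), Timp1 at 24 against 9 (1.99-fold, 0.891 to 4.85) and Mmp19 at 21 against 10 (1.56-fold, 0.705 to 3.72). The intervals of Timp1 and Mmp19 include 1. The endothelial-like clusters were mixed differently in the 2 tissues. Cluster 19 gave 196 of the 1440 cells in wild-type SILT and 7 of the 758 in wild-type lamina propria. Within cluster 0, the largest of them, Plaur was 2.24-fold higher in wild-type SILT (1.66 to 3.05). Plau had 16 UMIs there in SILT against 8 in lamina propria, too few to be counted. The part of the mix in the class values was not tested.

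Monocyte-like cells were also lowest for Plaur in wild-type lamina propria, with 105 CPM in Csf2-/- SILT, 106 CPM in wild-type SILT, 93.5 CPM in Csf2-/- lamina propria and 55.7 CPM in wild-type lamina propria. Csf2-/- lamina propria was 1.68-fold above wild type (1.43 to 1.98) and wild-type SILT 1.90-fold above wild-type lamina propria (1.63 to 2.22). Under a cell filter of 500 genes and 5% mitochondrial UMIs these log2 ratios were 0.28 and 0.51, under 1.5-fold, and with the 9 genes allowed into the clustering they were 0.33 and 0.62. In cluster 2, monocyte-like cells led by Ccr2, Clec12a and Il1b, the Csf2-/- over wild-type ratio in lamina propria was 1.74 (1.34 to 2.27). In cluster 7, led by Chil3 and Hp, it was 1.31. cDC2-like cells had 40.6 CPM in Csf2-/- SILT, 21.7 CPM in wild-type SILT, 25.7 CPM in Csf2-/- lamina propria and 20.3 CPM in wild-type lamina propria, with the difference in SILT at 1.88-fold (1.32 to 2.68) and 20.4% of genes that far apart.

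Because endothelial-like cells differed in the same direction, immediate early genes, which respond quickly to stimuli and tissue handling, are given beside Plaur. In endothelial-like cells 4 of 14 measured genes of that list were at least 1.5-fold higher in Csf2-/- lamina propria and 0 lower, where 6.42% of genes were higher and 7.97% lower. Zfp36 was highest at 1.93-fold and Fosb lowest at a ratio of 0.876. Junb had 1119 CPM in Csf2-/- and 684 CPM in wild-type lamina propria endothelial-like cells, and Egr1 1015 CPM in Csf2-/- and 613 CPM in wild type. In macrophage-like cells 1 of 14 measured genes of that list was at least 1.5-fold higher in Csf2-/- lamina propria (Dusp1, 1.57-fold) and 0 were lower. Over all genes there, 7.06% were higher and 11.9% lower. Their part in the Plaur levels was not tested.

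**Figure D4:**
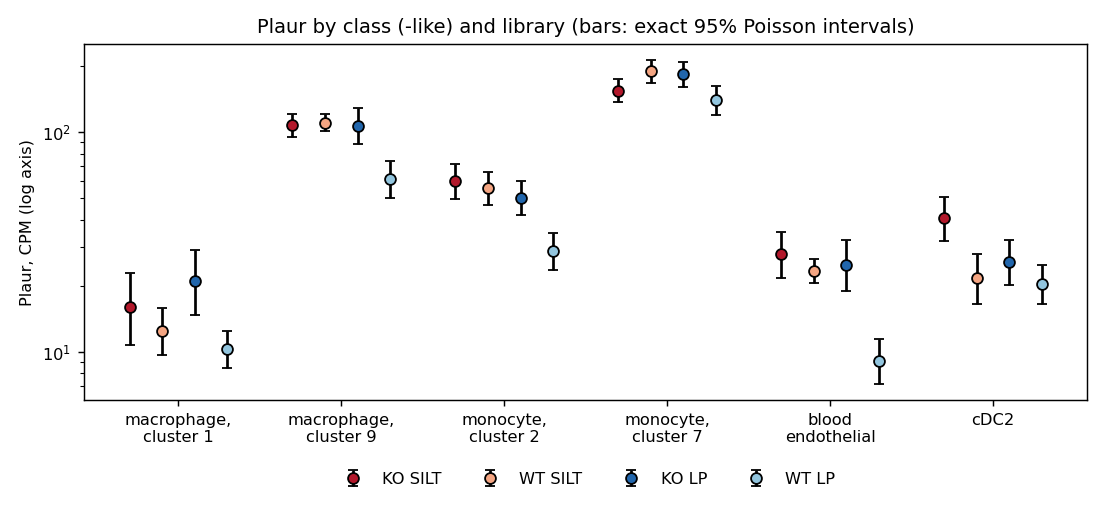
Plaur CPM (log axis) in 6 classes or clusters, one point per library (KO is Csf2-/-, WT wild type, LP lamina propria) with exact 95% Poisson intervals. WT LP has the lowest point in each of the 6, most clearly in endothelial-like cells at 9.12 CPM. In macrophage cluster 1 and cDC2-like cells WT LP and WT SILT did not differ beyond counting error. The WT SILT over WT LP ratios there were 1.21 (0.876 to 1.66) and 1.06 (0.759 to 1.48).

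Some of the remaining monocyte-like values rested on few UMIs, as for Mmp9 and Mmp13. In SILT 1 of 7 measured genes was 1.5-fold apart between genotypes (18.4% of all genes), Mmp9 with 23 UMIs in Csf2-/- and 13 in wild type. In lamina propria 5 of 7 were (13.5% of all genes): Mmp13 2.23-fold and Plaur 1.68-fold higher in Csf2-/-, and Mmp19 2.11-fold, Mmp9 1.82-fold and Mmp14 1.504-fold lower. Between tissues 1 of 7 was in Csf2-/- mice (11.8%) and 4 of 7 in wild type (33.3%). Those in wild type were Plaur, higher in SILT, and Mmp9 3.81-fold, Mmp19 1.93-fold and Timp2 1.56-fold lower. Timp2 had 317 UMIs in wild-type SILT against 600 in wild-type lamina propria. The counts of genes moved with the cell filter and the clustering, to 1 to 2 of the genes in lamina propria. Mmp14, Mmp9 and Mmp13 turned in direction under some settings. Timp1 had 25 UMIs in Csf2-/- SILT monocyte-like cells against 2 in wild-type SILT, and 14 of the 25 lay in 1 cell.

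Fibroblast-like cells could be compared between tissues in wild type, with 247 cells in SILT and 62 in lamina propria. Their cluster was led by Cxcl13, a lymphoid stromal marker, and had 3 markers of that class beside 9 of 10 fibroblast markers. The share of lymphoid stromal cells in each tissue was not tested. Mmp2, Mmp14 and Mmp19 were lower in SILT and Timp1, Mmp13 and Plau higher, 6 of 8 measured genes, where 38.4% of 9510 genes were 1.5-fold apart, 16.3% higher and 22.1% lower. Mmp2 had 334 CPM in SILT and 660 CPM in lamina propria, 1.98-fold lower (1.78 to 2.20). Mmp14 had 189 CPM in SILT and 341 CPM in lamina propria, 1.80-fold lower (1.56 to 2.09). Timp1 ran the other way, with 49.8 CPM in SILT and 18.4 CPM in lamina propria, 2.71-fold higher (1.61 to 4.88). Timp2 had 677 CPM in SILT and 896 CPM in lamina propria, 1.32-fold lower (1.22 to 1.44).

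Single cells carried part of the other fibroblast values. Of 103 Mmp19 UMIs in lamina propria 54 lay in 1 cell, and the ratio of 0.365 became 0.702 (0.497 to 1.003) with each library's highest cell left out. Of 23 Plau UMIs in lamina propria 18 lay in 1 cell, and the SILT over lamina propria ratio of 1.57 became 6.31 (2.61 to 19.8). Mmp13 had 34 UMIs in 7 cells of SILT and 1 UMI in lamina propria. Macrophage markers in these fibroblast-like cells summed to 7292 CPM in wild-type SILT and 1220 CPM in wild-type lamina propria, with all 14 detected in both, so they move with the tissue comparison. Their part in it was not tested. The Csf2-/- libraries held 26 fibroblast-like cells in SILT and 17 in lamina propria, too few to be compared here. Their levels were 76.1 and 40.8 CPM for Timp1, and 67.7 and 71.4 CPM for Mmp19.

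**Figure D5:**
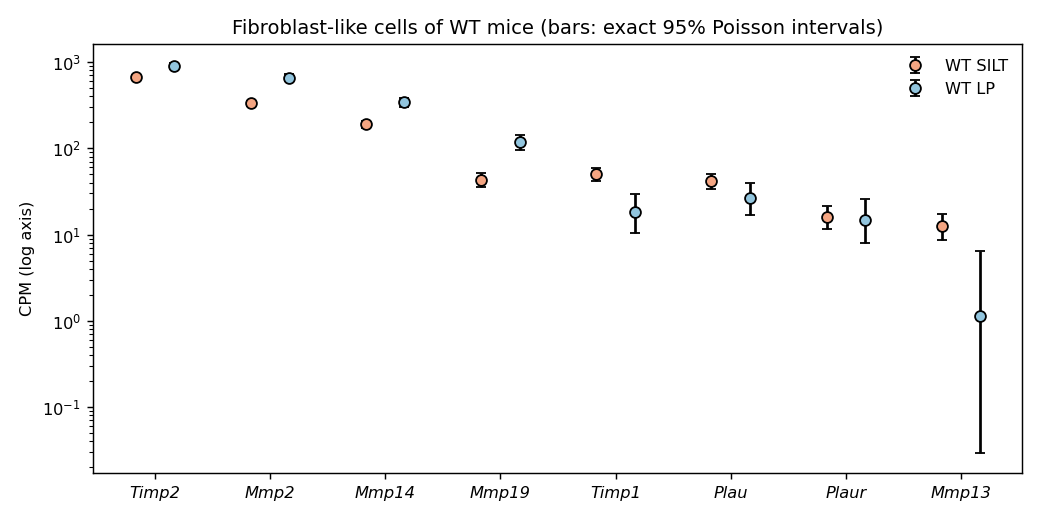
CPM (log axis) of 8 genes in fibroblast-like cells of wild-type mice, SILT left of lamina propria (LP), with exact 95% Poisson intervals. Mmp2, Mmp14 and Mmp19 lie lower in SILT and Timp1 higher (49.8 against 18.4 CPM), and the single Mmp13 UMI of LP has an interval that spans more than the axis step of 10-fold.

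Other stromal cells differed in Mmp14. Pericyte-like cells had 163 CPM in Csf2-/- SILT, 81.7 CPM in wild-type SILT, 92.6 CPM in Csf2-/- lamina propria and 117 CPM in wild-type lamina propria. In SILT the Csf2-/- level was 1.996-fold higher (1.33 to 2.97) from 45 and 64 UMIs, where 25.6% of genes were 1.5-fold apart, and in Csf2-/- mice the SILT level was 1.76-fold higher than in lamina propria (1.20 to 2.56). Cluster 3, unnamed because it joined pericyte and endothelial genes, had Mmp14 1.63-fold higher in Csf2-/- than in wild-type SILT (1.28 to 2.06), and in wild type 1.52-fold lower in SILT than in lamina propria (1.27 to 1.83). In cluster 21 of wild type, Mmp19 had 164 CPM in SILT and 279 CPM in lamina propria, 1.71-fold lower (1.38 to 2.13), where 38.0% of genes passed.

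Related genes in macrophage-like cells are summarised by list. Of 15 other metalloproteinase genes only Mmp12 reached 30 UMIs, with 61 CPM in Csf2-/- SILT, 76.1 CPM in wild-type SILT, 31 CPM in Csf2-/- lamina propria and 38.1 CPM in wild-type lamina propria. It was 1.97-fold higher in SILT than in lamina propria in Csf2-/- mice and 1.995-fold in wild type. Among other protease inhibitor genes, Timp3 was lower in Csf2-/- than in wild-type SILT at a ratio of 0.536, and Serping1 lower in Csf2-/- than in wild-type lamina propria at 0.491. Slpi was 15.5-fold higher in SILT than in lamina propria of wild type, from 64 and 5 UMIs, and had a ratio of 0.791 in Csf2-/- mice. Epithelial-like cells numbered 127 in wild-type SILT, 6 in wild-type lamina propria and 0 in each Csf2-/- library. The part of free RNA from those cells in the Slpi values was not tested.

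Among genes of the plasminogen system, Thbs1 was 2.51-fold higher in Csf2-/- than in wild-type SILT, and S100a10 had a ratio of 0.816. Between tissues Thbs1 was 2.89-fold higher in SILT of Csf2-/- mice, where S100a10 had a ratio of 0.807. In wild type Lrp1, a clearance receptor for protease and inhibitor complexes, was lower in SILT at 0.621. Of 15 ADAM and ADAMTS genes 7 or 8 were measured. Adam19 was 1.56-fold higher in Csf2-/- SILT with Adam10 lowest at 0.913. Between genotypes in lamina propria 0 genes passed (Adam19 1.30, Adamts10 0.742), where 19% of all genes did. Adam15 was lower in SILT than in lamina propria at 0.653 in Csf2-/- mice, where Adam19 was highest at 0.985, and at 0.467 in wild type, where 4 of 8 were lower, against 23.7% of all genes, and Adamts1 was highest at 1.29.

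Cathepsins (lysosomal proteases) and cystatins (protease inhibitors) had 0 of 12 measured genes past 1.5-fold between genotypes in SILT (Ctsz 1.30, Cst7 0.808), where 14.6% of all genes were. In lamina propria 2 of 11 were higher in Csf2-/- (Cstb highest at 1.72, Ctsc lowest at 0.859), where 7.06% of all genes were. Between tissues 0 of 11 passed in Csf2-/- mice (Ctsl 1.47, Ctsd 0.715), where 10.4% of all genes did. In wild type 3 of 11 were higher in SILT (Ctss highest at 1.72, Ctsc lowest at 0.833), where 8.39% of all genes were. Of 17 matrix substrate genes 6 of 14 were lower in Csf2-/- SILT and 1 higher, where 5.79% of all genes were lower and 8.82% higher, with Fn1, fibronectin, at 5.32-fold and Lama4 at 0.208. In lamina propria 6 of 12 were lower in Csf2-/- and 0 higher, where 11.9% of all genes were lower and 7.06% higher, with Eln lowest at 0.300 and Col1a1 highest at 1.29. Between tissues Fn1 was 7.08-fold higher in SILT of Csf2-/- mice with Hspg2 lowest at 0.511, 1 of 7 each way, where 4.12% of all genes were higher and 6.32% lower. In wild type 2 of 15 passed in each direction, where 8.39% of all genes were higher and 23.7% lower, with Spp1 3.16-fold higher and Lamc1 at 0.476. Many of these substrates are stromal transcripts, and the fibroblast markers in macrophage-like cells summed to 46.5 CPM in Csf2-/- SILT, 64.1 CPM in wild-type SILT, 40.4 CPM in Csf2-/- lamina propria and 56 CPM in wild-type lamina propria. They move with the genotype comparisons, and their part was not tested.

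Of 15 AP-1 and immediate early genes 14 were measured in macrophage-like cells. In SILT 2 were higher and 2 lower in Csf2-/-, where 8.82% of all genes were higher and 5.79% lower, with Egr1 at 1.66 and Hspa1b at 0.616. In lamina propria Dusp1 was highest at 1.57 and Hspa1a lowest at 0.670, which is not past 1.5-fold. Between tissues 2 were lower in SILT in Csf2-/- mice (Hspa1b lowest at 0.523, Atf3 highest at 1.44), where 6.32% of all genes were lower. In wild type 1 was higher and 3 lower (Atf3 1.81, Hspa1a 0.580), where 8.39% of all genes were higher and 23.7% lower.

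The genes with the most similar pattern were found by Pearson's r of log2(CPM + 10) over 61 class-by-library sums among 8645 genes, given as a description. The sums of 1 library share its depth and free RNA. For Mmp2 they were Tnc (0.833), C1ra (0.832) and Dkk3 (0.828), for Mmp14 Cd63 (0.802), Mmp2 (0.797) and Scarb2 (0.793), and for Timp1 Serpina3n (0.898), Mmp3 (0.888) and Fndc1 (0.858). Mmp13 came closest to Fcgr4 (0.834), C5ar1 (0.832) and C5ar2 (0.822), and Mmp9 to Fpr1 (0.815), Fpr2 (0.789) and S100a9 (0.78). Timp2 came closest to Lamp2 (0.865), Ctsd (0.84) and Ecm1 (0.835), and Plau to Itga9 (0.824), Igf1 (0.808) and Pdgfc (0.804). Mmp19 had Steap3 (0.762), Lpl (0.695) and Tnfsf13b (0.689), and Plaur Cyp4f18 (0.812), Pilra (0.769) and Dok3 (0.769). The pair of Mmp2 and Mmp14 was the closest of all pairs among the 9 genes.

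In GRCm38 (GENCODE M21) Mmp2 (ENSMUSG00000031740) lies on the plus strand of chromosome 8 from 92827291 to 92853420, Mmp9 (ENSMUSG00000017737) on chromosome 2 from 164940780 to 164955850, and Mmp13 (ENSMUSG00000050578) on chromosome 9 from 7272514 to 7283331. Mmp14 (ENSMUSG00000000957) lies on chromosome 14 from 54431612 to 54445364 and Plau (ENSMUSG00000021822) on the same chromosome from 20836660 to 20843385. Mmp19 (ENSMUSG00000025355) lies on chromosome 10 from 128790910 to 128800824, Plaur (ENSMUSG00000046223) on chromosome 7 from 24462484 to 24475968 and Timp1 (ENSMUSG00000001131) on chromosome X from 20870166 to 20874735. All of these are on the plus strand. Timp2 (ENSMUSG00000017466) lies on the minus strand of chromosome 11 from 118301069 to 118355740.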

How the data were processed

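Single-cell 3' libraries were made from CD11b-selected colon cells, 1 for each of 4 groups, and groups were taken from the labels. The deposited values are raw UMI counts per gene and barcode for 32285 features, with no normalization, per the file headers. The authors had called the barcodes (17905 in all). The matrices were written by Cell Ranger 6.0.0 per the file headers, whereas the submitters' processing notes give Cell Ranger 2.1.1 and mm10, and the labels' protocols give version 2 chemistry. These do not match and could not be settled from the files. Free RNA was not subtracted, so low levels can hold it.

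Barcodes needed 200 genes or more and no more than 10% of UMIs from mitochondrial genes, which left 16557. Scrublet in scanpy 1.11.5, at an expected 0.8% per 1000 cells, marked 192 doublets, which were left out. The 16365 cells, 5819.5 to 9959 median UMIs per library, were clustered together without batch correction on 2000 variable genes other than the 9, with 30 principal components, 15 neighbours and Leiden resolution 1 (leidenalg 0.10.2, igraph 0.11.9). A cluster was named from at least 3 markers of a class that were at least 2-fold higher there and in at least 10% of its cells. That naming rule was set after the clusters were seen.

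UMIs were summed per class and library and scaled to CPM. Ratios were taken where each library had at least 30 cells, and a gene was counted as apart at 1.5-fold or more with at least 30 UMIs over both libraries. Intervals at the 95% level came from scipy 1.17.1 (exact Poisson for levels, exact binomial for shares, conditional binomial for ratios), and a count of 0 was read as allowing up to 3 counts. With 1 library per group there was no test. The intervals were checked on simulated data. The rest was done in Python 3.11.15 with pandas 2.3.3, numpy 2.4.6, scikit-image 0.26.0 and matplotlib 3.10.9, with TMM factors from edgeR 4.0.16 in R 4.3.3.

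All 9 genes were named, with the 3 most alike genes of each (Pearson's r of log2(CPM + 10), genes with at least 50 CPM in 1 sum of at least 30 cells) and the highest and lowest measured gene of each list. Of 2 lists, other protease inhibitors and the plasminogen system, the counts and 1 gene are not reported here. The members, markers and 7 lists were chosen with earlier results of these data known. Alternatives were other cell filters, doublets kept, Leiden resolutions 0.5 and 2, the members allowed among the variable genes, cells with at least 2000 UMIs, thinning to 1000 UMIs, TMM factors, totals that left out mitochondrial and ribosomal genes, cell means, a fold of 2, no UMI minimum, a rule of 2 C1q UMIs, and leaving out the highest cell.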

Additional observations from a re-analysis of the deposited data

Results flagged for a closer look

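Contrasts of Plau and Mmp14 had opposite directions in 2 groups, and none of these differences was tested, since each group is 1 library. In macrophage-like cells Plau was lower in SILT than in lamina propria of Csf2-/- mice (log2 ratio -0.72) and higher in SILT than in lamina propria of wild type (log2 ratio 0.61). In monocyte-like cells Mmp14 was higher in Csf2-/- than in wild-type SILT (0.35) and lower in Csf2-/- than in wild-type lamina propria (-0.59). Also in monocyte-like cells, Mmp14 was higher in SILT than in lamina propria of Csf2-/- mice (0.53) and lower in SILT than in lamina propria of wild type (-0.41). Each pair of statements on Mmp14 rests on the same 4 libraries.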

How the results depend on the processing

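Among named classes, the class with the highest level stayed the same for 9 of 9 genes in every setting that recomputed it. Unnamed clusters, such as cluster 21 for Mmp19, were not part of that ranking. Counts of genes at least 1.5-fold apart moved as follows, given without the share of all genes under each setting. In macrophage-like cells a fold of 2 left 1 of 2 between genotypes in SILT, 2 of 4 between tissues in Csf2-/- mice and 4 of 7 in wild type. Leiden resolution 2 and means over cells each gave 2 of the 4. In monocyte-like cells the count of 1 between genotypes in SILT became 2 at Leiden resolution 0.5, with means over cells and with no UMI minimum, and 0 at a fold of 2. The count of 5 in lamina propria became 1 under a filter of 500 genes and 5% mitochondrial UMIs, and 2 with doublets kept, at Leiden resolution 2, with the members among the variable genes and at a fold of 2. Between tissues in Csf2-/- mice the count of 1 became 2 under 500 genes, doublets kept, Leiden resolution 0.5, members allowed, TMM factors and no UMI minimum. In wild type the count of 4 became 1 under 500 genes, doublets kept and a fold of 2, and 2 at Leiden resolution 2 and with members allowed. In endothelial-like cells no UMI minimum gave 3, 5 and 5 in place of 0, 1 and 0 (genotypes in SILT, genotypes in lamina propria, tissues in Csf2-/- mice), and means over cells gave 2 and 1 in the last 2 of these. A fold of 2 left 2 of 4 between tissues in wild type. Fewer genes or UMIs enter under a fold of 2 or a stricter filter. For the other settings the cause was not tested.

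Of single log2 ratios, Plau in macrophage-like cells between tissues in wild type turned to -0.12 under the C1q rule. In monocyte-like cells Mmp14 between genotypes in lamina propria turned to 0.20 with 500 genes and 0.26 with members allowed, and Mmp9 to 0.032 at Leiden resolution 2. Mmp13 between tissues in Csf2-/- mice turned to 1.09, 0.19, 0.59 and 0.98 (500 genes, doublets kept, Leiden resolution 2, members allowed), and Mmp9 in wild type to 0.13 at Leiden resolution 2.

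Settings chosen after seeing the data were values within clusters, equal cluster weight and leaving out the highest cell of a cluster. Counts under them are also given without the share of all genes. Equal weight gave 2 of 4 genes between genotypes in lamina propria and 3 of 7 between tissues in wild type, where Mmp2 turned to -0.022 and Mmp14 to -0.24. Within cluster 9 these were -0.051 and -0.30, and within cluster 1 Mmp9 between tissues in Csf2-/- mice was 0.21. Mmp13 in cluster 1 between genotypes in lamina propria was -0.59 without the highest cell. No paired analysis was possible because each group is 1 library with no replicate numbers to share. Depth kept Timp1 in macrophage-like cells, and Mmp9 and Mmp13 in endothelial-like cells, under 30 UMIs in the comparisons.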

Other observations

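Plasma cell-like cells had 57 Mmp13 UMIs in 8 of 69 cells of Csf2-/- SILT and 121 in 26 of 275 cells of wild-type SILT, and macrophage markers summed there to 4609 and 4259 CPM. Neutrophil-like cells had 20 Mmp13 UMIs in 3 cells of Csf2-/- SILT, where macrophage markers summed to 19885 CPM. Cluster 6, unnamed SILT cells led by Cst7, Il22ra2 and Acod1 with a median of 1084.5 UMIs, had 124 CPM of Mmp14 in Csf2-/- and 59.7 CPM in wild type (2.07-fold, 1.23 to 3.37). Mmp3, a stromelysin gene and the second most alike to Timp1, had 138 UMIs in fibroblast-like cells of wild-type SILT and 14 in those of wild-type lamina propria, 50.9 and 16.1 CPM. Serpinb2, an inhibitor of urokinase, was found in monocyte-like cells at 18.1 CPM in Csf2-/- SILT, 30.3 CPM in wild-type SILT, 20.5 CPM in Csf2-/- lamina propria and 19.1 CPM in wild-type lamina propria, and in macrophage-like cells at 1.32, 1.21, 0.36 and 0.166 CPM.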
